A study of Mus musculus with 14 samples.

Results

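Heme is made by a chain of enzymes that starts and ends inside the mitochondrion, and iron has to be carried across the inner mitochondrial membrane before it can be inserted into the porphyrin ring. The results below follow 9 genes of this pathway in splenocyte RNA, namely the 7 enzyme genes Alas2, Alad, Uros, Urod, Cpox, Ppox and Fech and the 2 carrier genes Slc25a37 and Slc25a38. The genes were chosen by name from the pathway and not by a cut on their values, though earlier results of these data were known. Every array probe whose accession RefSeq assigns to 1 of these symbols was taken, which gave 14 probes for the 9 genes, among 24908 genes tested in all.

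In the mitochondrion, ALAS2, the erythroid form of 5-aminolevulinate synthase, joins glycine and succinyl-CoA in the rate-setting step. Cytosolic enzymes, ALAD, UROS and UROD among them, then build and trim the ring, and CPOX and PPOX oxidize it in the mitochondrion until ferrochelatase (FECH) inserts iron. Mitoferrin-1 (Slc25a37) imports that iron and SLC25A38 imports glycine for the first step. Developing red blood cells run this pathway hardest, and the mouse spleen makes red blood cells beside its immune cells.

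The RNA came from 7 WT mice of the strain C57BL/6 and 7 Sting gt/gt mice, also known as golden ticket or Tmem173gt mice, whose allele was made with the mutagen ENU on the C57BL/6 background and lacks detectable STING protein according to the methods. All 14 mice were 10 to 14 weeks old and had been injected intradermally with chicken collagen type II (CII) in complete Freund's adjuvant (CFA) 2 weeks before the spleen was taken, so no array shows an uninjected spleen. The WT mice were purchased and the Sting gt/gt line came from another laboratory, so mouse source and genotype cannot be told apart. Red blood cells were lysed with ACK buffer while the splenocytes were prepared. Each mouse was read on its own single-colour Agilent array.

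The scanner files show 2 scan days. Of each genotype, replicates 1 to 3 were scanned on 1 day (scan day 1) and replicates 4 to 7 on a later day (scan day 2), and 38.8% of all tested genes differed between the days at an adjusted p under 0.05 (limma, with genotype as a term). Scan day 2 has no slide with both genotypes (2 slides of WT and 1 of Sting gt/gt), so the slide cannot be told apart from the genotype there. Between 30781 and 34400 of 56605 probes per array were well above background. The targeted gene, listed as Sting1, lay between 2.35 and 2.85 in WT mice and between 2.45 and 2.77 in Sting gt/gt mice on the log2 scale explained next, which checks no label, since the allele is a base change and not a deletion.

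Expression is given as log2 signal, meaning log2 of the processed probe intensity minus the 75th percentile of that array, so a value of 0 is the brightness of the array's 75th percentile. Differences are log2 fold changes, Sting gt/gt minus WT, and a gene was called at an unadjusted p under 0.05 by limma, the threshold of the study. All 14 member probes were well above background on all 14 arrays and none was saturated. Levels of different genes are not set against each other, because each probe has its own brightness.

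The members vary together from mouse to mouse, so the stretches before their transcription starts are shown for those that carry a GATA motif, the kind of site bound by the erythroid factor GATA1. RefSeq starts with the table's build, GRCm38.p6, were available for 7 members, with 9 windows of 250 bases upstream (2 starts each for Alad and Uros). The letters AGATAA or TGATAA, on either strand, were found in 3 of the 9 windows, those of Alas2 (chrX:150547167-150547416, plus strand), Cpox (chr16:58669958-58670207, plus strand) and the downstream start of Uros (chr7:133702501-133702750, minus strand), against 16.6% of all 32851 promoter windows of the same length. Ppox (chr1:171281187-171281436, minus strand), which holds none of the motifs searched, stands beside them for comparison. The sequences read 5′ to 3′ toward the start, and the capitals mark the motif, here on the opposite strand.
Alas2: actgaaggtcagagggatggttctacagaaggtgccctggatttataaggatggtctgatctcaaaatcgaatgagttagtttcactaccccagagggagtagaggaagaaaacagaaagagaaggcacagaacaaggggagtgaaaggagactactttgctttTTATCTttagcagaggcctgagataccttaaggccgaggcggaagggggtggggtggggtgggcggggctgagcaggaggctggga
Cpox: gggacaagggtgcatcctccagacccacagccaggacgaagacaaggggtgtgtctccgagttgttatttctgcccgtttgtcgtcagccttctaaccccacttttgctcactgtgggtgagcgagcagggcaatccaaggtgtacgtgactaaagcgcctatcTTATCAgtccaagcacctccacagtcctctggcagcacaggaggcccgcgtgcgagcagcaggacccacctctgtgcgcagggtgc
Uros: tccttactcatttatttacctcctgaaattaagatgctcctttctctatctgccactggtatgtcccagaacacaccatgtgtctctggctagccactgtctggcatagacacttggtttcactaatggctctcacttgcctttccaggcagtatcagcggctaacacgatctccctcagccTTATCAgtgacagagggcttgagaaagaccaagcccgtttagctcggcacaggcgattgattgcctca
Ppox: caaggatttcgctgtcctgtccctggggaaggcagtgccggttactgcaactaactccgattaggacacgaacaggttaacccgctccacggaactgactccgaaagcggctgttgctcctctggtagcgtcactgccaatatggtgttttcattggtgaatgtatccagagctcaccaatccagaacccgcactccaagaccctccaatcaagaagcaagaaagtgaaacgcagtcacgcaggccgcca

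In the windows of both Alas2 and Cpox the motif began 86 bases before the start, and in Uros 68 bases before it. The letters CCACACCC, the kind of site bound by KLF1, were in none of the 9 windows and in 3.20% of all windows. The GC box CCGCCC was in 5 of the 9 and in 32.7% of all, and the E-box letters CANNTG were in 6 of the 9 and in 66.2% of all. The windows of the Alad starts overlap and share GC boxes and E-box letters, so the 9 windows are not independent. These matches describe letters and not binding.

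All 9 members had a lower mean in Sting gt/gt than in WT splenocytes, but none was called (0 of 9, against 3.48% of all tested genes). The log2 fold changes ran from -0.33 for Uros to -0.14 for Fech, with a median of -0.23 beside 0.017 for all genes, and standard errors were 0.14 to 0.22. By the two-sided exact permutation test over the 3432 ways to part the 14 arrays, p ran from 0.123 for Alas2 to 0.422 for Fech, and the Benjamini-Hochberg adjusted p by limma was 0.9998 for each. In RNA from a mixed organ, fewer cells of a type and less RNA per cell cannot be told apart.

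**Figure D1:**
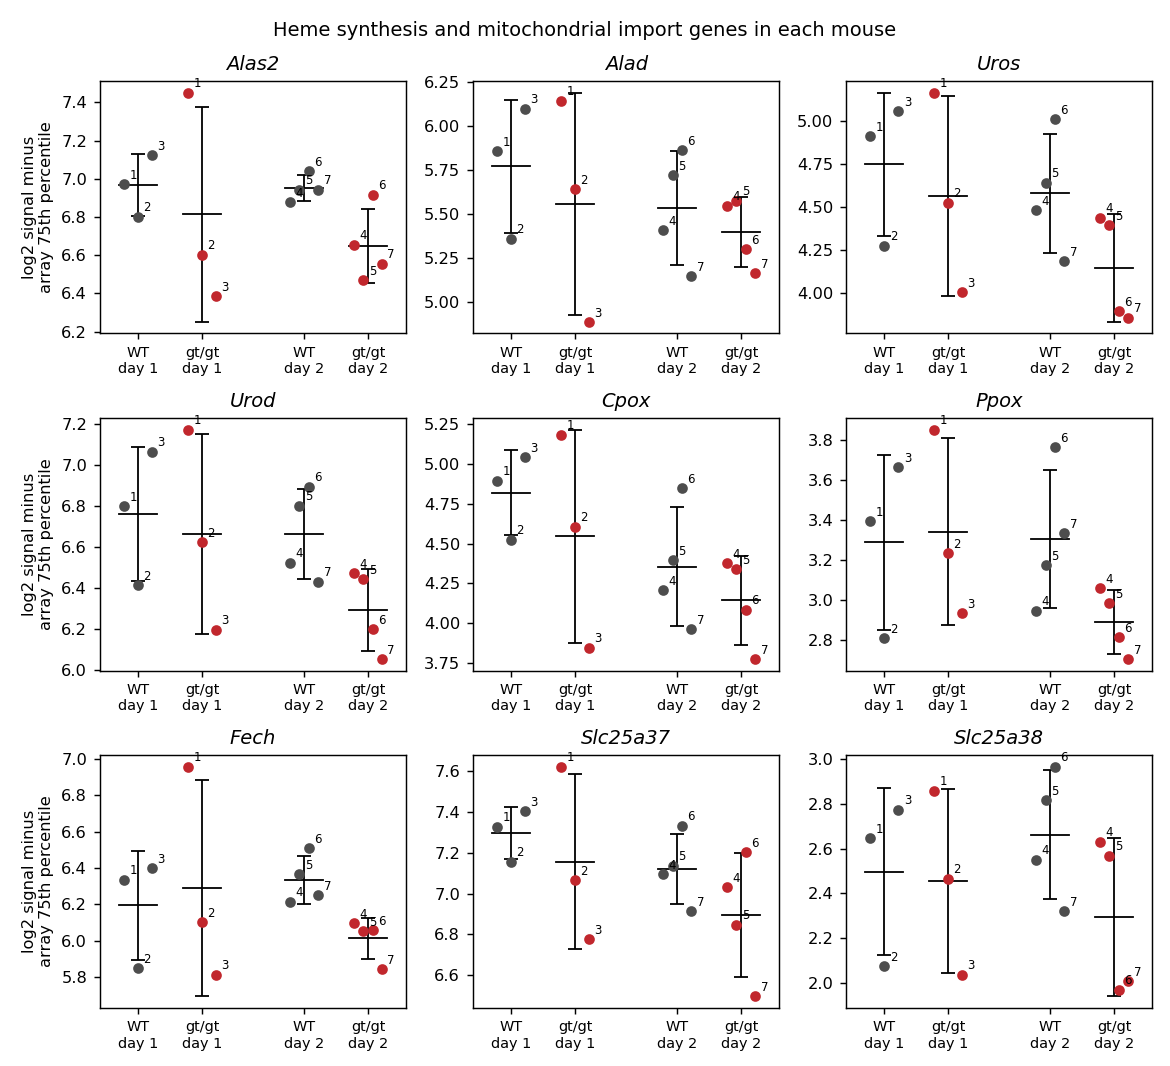
Each panel plots 1 member gene, with log2 signal minus the array's 75th percentile on the y axis and genotype by scan day on the x axis (gt/gt, Sting gt/gt). Points are single mice numbered by replicate, lines are means and bars are SD (n = 3 per genotype on scan day 1 and 4 on scan day 2); Sting gt/gt replicate 1 lies highest of the 14 mice in 8 of the 9 panels.

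Alas2, the rate-setting enzyme gene of red blood cell precursors, ran from 6.80 to 7.13 in WT (median 6.94, mean 6.96 ± 0.11 SD, n = 7). In Sting gt/gt it ran from 6.39 to 7.45 (median 6.60, mean 6.72 ± 0.36 SD, n = 7). The WT mice lay close together, while 5 of the 7 Sting gt/gt mice lay below the lowest WT mouse and replicate 1 lay above the highest. The log2 fold change was -0.24 ± 0.14 (SE), a mean 15.2% lower in Sting gt/gt, with p = 0.118 by limma and 0.123 by the exact permutation test.

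Of the enzymes that build the ring in the cytosol, Alad (porphobilinogen synthase) lay between 5.15 and 6.10 in WT mice (median 5.72), against 4.89 to 6.14 in Sting gt/gt mice (median 5.55). Its groups overlapped over nearly the whole range, and the log2 fold change was -0.17 ± 0.19 (SE). Uros, which closes the ring, had the lowest log2 fold change of the 9, -0.33 ± 0.21 (SE), with p = 0.135 by limma and 0.159 by the exact permutation test. Uros lay between 4.18 and 5.06 in WT mice (median 4.64), against 3.86 to 5.16 in Sting gt/gt mice (median 4.39), and 3 Sting gt/gt mice lay below every WT mouse. Urod, the next enzyme, lay between 6.41 and 7.06 in WT mice (median 6.80), against 6.05 to 7.17 in Sting gt/gt mice (median 6.44), a log2 fold change of -0.25 ± 0.17 (SE). In each of these 3 genes 6 of the 7 Sting gt/gt mice were below the WT median, and replicate 1 was above every WT mouse.

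The mitochondrial enzymes also had lower means in Sting gt/gt. Cpox, coproporphyrinogen oxidase, lay between 3.96 and 5.04 in WT mice (median 4.53), against 3.77 to 5.18 in Sting gt/gt mice (median 4.34). Its log2 fold change was -0.24 ± 0.22 (SE), and the spread over the 14 mice (1.41) was the widest among the 9 members. Ppox, protoporphyrinogen oxidase, lay between 2.81 and 3.76 in WT mice (median 3.33), against 2.70 to 3.85 in Sting gt/gt mice (median 2.98), a log2 fold change of -0.21 ± 0.19 (SE). Fech, which inserts the iron, lay between 5.85 and 6.51 in WT mice (median 6.34), against 5.81 to 6.96 in Sting gt/gt mice (median 6.06). Fech had the smallest log2 fold change of the 9, -0.14 ± 0.16 (SE), with 6 of 7 Sting gt/gt mice below the WT median, replicate 1 at 6.96 and the next highest at 6.10.

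The log2 fold changes of the carriers, by their brightest probes, lay within the range of those of the enzymes. Slc25a37, mitoferrin-1, lay between 6.91 and 7.41 in WT mice (median 7.16), against 6.50 to 7.62 in Sting gt/gt mice (median 7.03), a log2 fold change of -0.19 ± 0.15 (SE). Slc25a38, the glycine carrier, lay between 2.07 and 2.97 in WT mice (median 2.65), against 1.97 to 2.86 in Sting gt/gt mice (median 2.47), a log2 fold change of -0.23 ± 0.17 (SE). Slc25a38 was the single member whose highest value was in a WT mouse, replicate 6.

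The 2 scan days were also compared apart. On scan day 1, with 3 mice per genotype, 7 of the 9 members were below 0 (median -0.14) and none was called (5.56% of all genes). Ppox (0.053, by its brightest probe) and Fech (0.096) were above 0 there, and the smallest p that an exact permutation test of 3 against 3 allows is 0.1. On scan day 2, with 4 mice per genotype, all 9 were below 0 with a median of -0.32, and again none was called, although 22.1% of all genes were. The lowest values on that day were Uros (-0.43), Ppox (-0.41), Urod (-0.37) and Slc25a38 (-0.37).

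By the brightest probes, Fech was the single member whose genotypes did not overlap on scan day 2 (a dimmer probe of Slc25a37 is described below). Its Sting gt/gt values there were 6.10, 6.05, 6.06 and 5.84 against 6.22, 6.37, 6.51 and 6.25 in WT (exact permutation p = 0.0286, the smallest that 4 against 4 allows; limma p = 0.141). Of all tested genes, 7.43% had every Sting gt/gt array below every WT array on that day. The genotype effect did not differ detectably between the days for any member (interaction by limma, 0 of 9 called against 18% of all genes; exact permutation within days, p = 0.26 to 0.901). With scan day as a term, 0 of 9 members were called, against 7.27% of all genes.

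None of the 9 members differed between the days at an adjusted p under 0.05, against the 38.8% of all genes given above, and their scan day 2 minus scan day 1 differences ran from -0.43 for Cpox to 0.0028 for Slc25a38. Their median was -0.22, beside -0.013 for all genes and a median size of 0.27 for all genes regardless of direction, and Cpox alone passed the unadjusted threshold.

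Several mice lay far from the WT mean of their scan day, in both directions. Sting gt/gt replicate 1 was the highest of all 14 mice for 8 of the 9 members, with a median of 0.41 above the WT mean of its scan day and all 9 members above it. Sting gt/gt replicate 3 (median -0.56) and replicate 7 (median -0.60) had all 9 members below the WT mean of their day and between them held the lowest value of 8 members. Replicate 2 of Sting gt/gt was also below it for all 9 (median -0.14). Among WT mice, replicates 1, 3 and 6 had all 9 members above the WT mean of their day and replicates 2 and 4 had none. High and low mice of the pathway were thus found in both genotypes.

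Each array was left out in turn, and 13 of the 14 omissions left 0 of 9 members called. Without Sting gt/gt replicate 1, 6 of 9 members were called lower, against 3.88% of all genes called lower in that fit, and the median log2 fold change was -0.34. Alas2 was then -0.36 ± 0.10 (SE; limma p = 0.00268; exact permutation p = 0.00233), and Uros (-0.47), Urod (-0.37), Ppox (-0.34), Fech (-0.28) and Slc25a37 (-0.29) were called beside it. Alad (-0.28), Cpox (-0.38) and Slc25a38 (-0.31) were not. No member passed the adjusted threshold there, where the lowest adjusted p was 0.455. The array left out held the highest of the 14 values for 8 of the 9 members, Alas2 among them. The p and the counts of called genes in that fit depend on leaving those values out, so they cannot be read as ordinary ones. Over all 14 arrays the exact permutation p of Alas2 was 0.123. Sting gt/gt replicate 1 also held the highest mean of the erythroid marker list below and the highest Klf1 and Slc4a1 values. It did not hold the highest Gata1, Hba-a1, Hba-a2 or Hbb-bt value. What sets this array apart was not tested.

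The direction differed when arrays were compared within slides, but the 2 slides that allow this did not share a direction. With slide as a fixed block the estimate uses the 5 arrays of the 2 slides that hold both genotypes, 3 WT and 2 Sting gt/gt, all of scan day 1, 1 of them Sting gt/gt replicate 1. All 9 members were then above 0, from 0.073 for Slc25a37 to 0.37 for Fech (median 0.11), and none was called (3.6% of all genes). With slide as a random block 8 of 9 were below 0, with a median of -0.097. With array weights and an intensity trend, 4 of 9 members were called lower, against 8.17% of all genes called lower and 17.5% called in either direction.

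**Figure D2:**
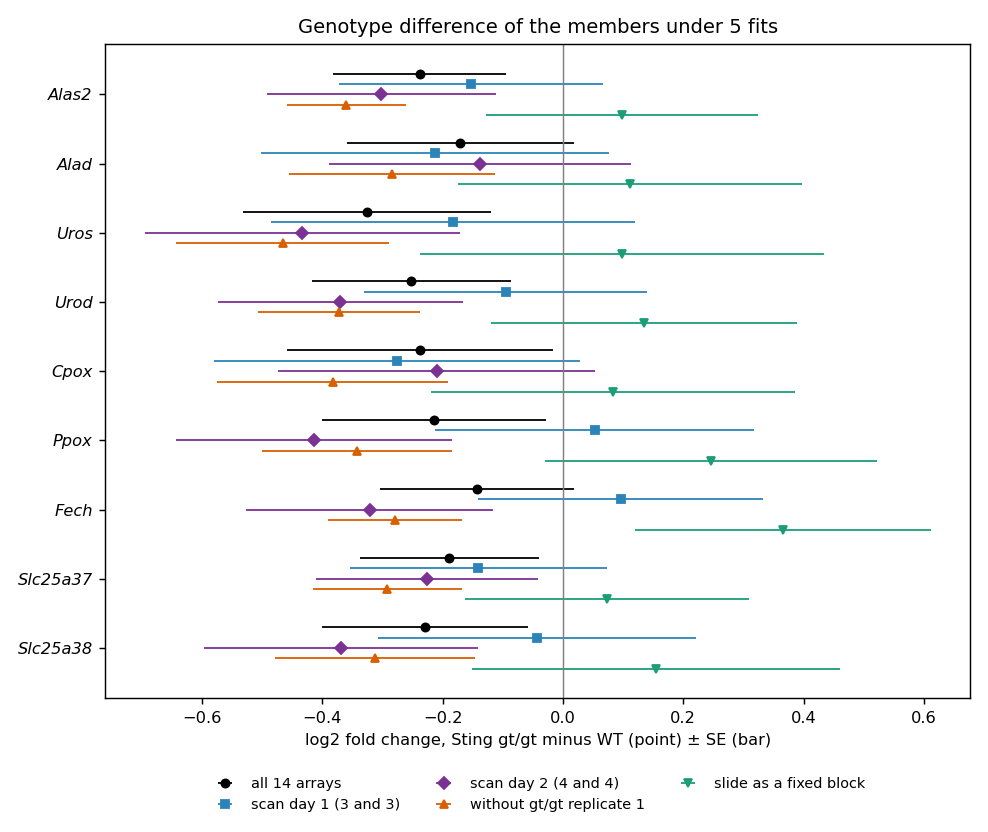
Log2 fold change, Sting gt/gt minus WT (x axis, point), with its SE (bar), for each member (y axis) in 5 limma fits, namely all 14 arrays, each scan day, without Sting gt/gt replicate 1, and slide as a fixed block. All 9 points of the 14-array fit lie left of 0 between -0.33 and -0.14, and all 9 points of the slide block lie right of it.

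The members varied together across mice. After the mean of each scan day was removed, the 36 pairs of members correlated across the 14 arrays at r = 0.57 to 0.975, with a median of 0.85, as a description without a test, since arrays of a slide are not independent. The closest pairs were Uros with Urod and Uros with Slc25a38, and the loosest was Alas2 with Slc25a38. Set against Alas2, Fech (r = 0.879) was 88th and Slc25a37 (r = 0.873) 95th of 24896 genes, while Slc25a38 (r = 0.57) was 2209th. The median gene had r = -0.023 and the 95th percentile of all genes was 0.66.

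Within scan day 1 (6 arrays), the other 8 members correlated with Alas2 at Pearson r = 0.836 to 0.988 and Spearman rho = 0.829 to 1 (exact permutation p for r = 0.00278 to 0.0403). Adjusted over the 68 relations computed, these p were 0.0795 to 0.109. Within scan day 2 (8 arrays), r was 0.234 to 0.791 and rho 0.31 to 0.905 (exact permutation p for r = 0.0176 to 0.568, adjusted 0.0795 to 0.743). Fech was the closest on scan day 2, with r = 0.791 and rho = 0.905 (exact permutation p = 0.0176 and 0.00456, adjusted 0.0795 and 0.0515). Without the 2 arrays farthest from the median Alas2 level, r was 0.598 to 0.987 on scan day 1 and 0.135 to 0.7 on scan day 2. For Alad, Uros, Cpox and Slc25a38 the relation on scan day 2 was weak with all 8 arrays (r = 0.234 to 0.405) as well as without those 2 (r = 0.135 to 0.279).

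**Figure D3:**
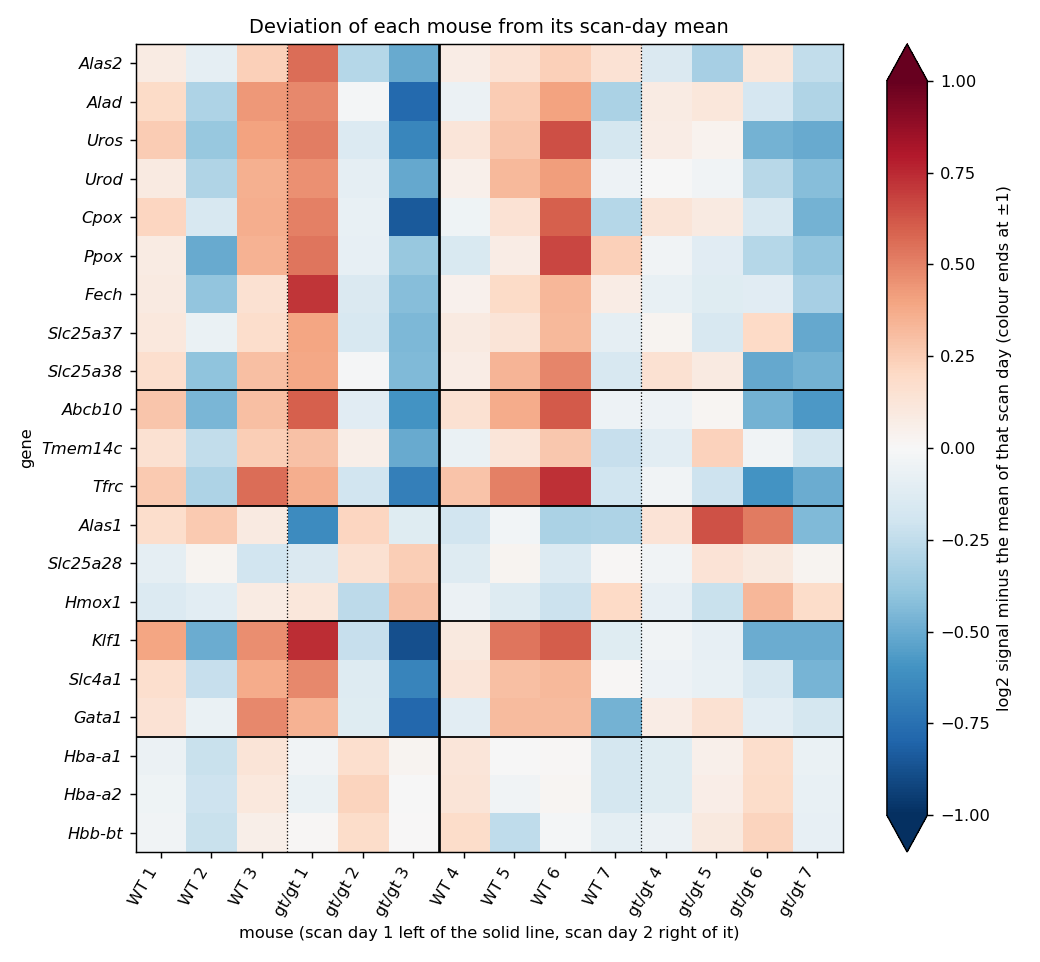
Colour gives each gene's log2 signal (rows) in each mouse (columns) minus the mean of its scan day, red for higher and blue for lower, with the colour scale ending at 1 and -1. The 9 members at the top, Abcb10, Tmem14c and Tfrc below them, and Klf1, Slc4a1 and Gata1 share the high column of Sting gt/gt replicate 1 and the low column of replicate 3, while the globin genes in the bottom rows do not.

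The 10 genes with a symbol whose pattern was most like that of Alas2, by the same measure over 14 arrays, had r from 0.979 to 0.95 and included Epb41, Bcl2l1, Slc25a39, Ube2o, Pabpc1, Fchsd1, Ube2l6, Ncoa4 and Mkrn1. Epb41 codes for the membrane skeleton protein 4.1 of red blood cells, Bcl2l1 for the survival protein BCL-XL, and Ncoa4 for the receptor that brings ferritin to lysosomes. Slc25a39 is a mitochondrial carrier of the same family as the members' carriers. Each of the 10 was below 0 in Sting gt/gt, from -0.25 for Fchsd1 to -0.15 for Ncoa4, and none was called. They were picked by likeness to Alas2 with the genotype difference left in. Their direction and lack of calls thus largely follow from that choice.

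Probes of the same gene gave like values for Uros and Ppox but not for Slc25a37. The 3 Uros probes had log2 fold changes of -0.27, -0.33 and -0.39, and the 2 Ppox probes -0.21 and -0.24. On scan day 1 alone the Ppox probes differed in sign, at 0.053 for the brightest and -0.077 for the other. For Slc25a37 the brightest probe gave -0.19 ± 0.15 (SE). A dimmer probe, A_52_P507688, gave -0.44 ± 0.22 (SE), and a further probe, A_55_P2032445, gave 0.19 ± 0.21 (SE). None of the 3 passed the threshold over 14 arrays, and over all tested probes the adjusted p by limma was 0.99996 for each of the 3.

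On scan day 2 the dimmer probe A_52_P507688 was lower in Sting gt/gt, with a difference of -0.79 that passed the unadjusted threshold by limma. The probe's 4 Sting gt/gt values of -0.33, -0.61, -0.86 and -1.25 all lay below the WT values, the lowest of which was -0.17. Such a separation held for 7.43% of all genes on that day, when slide cannot be told apart from genotype. On scan day 1 its difference was 0.020. The difference between the days (-0.81) did not pass the unadjusted threshold by limma. Across mice this probe followed Alas2 (r = 0.787 after scan-day means were removed), as the brightest did, while A_55_P2032445 did not (r = -0.28). The 3 probes thus differed in sign, and the columns used here do not say which part of the transcript each one reads.

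**Figure D4:**
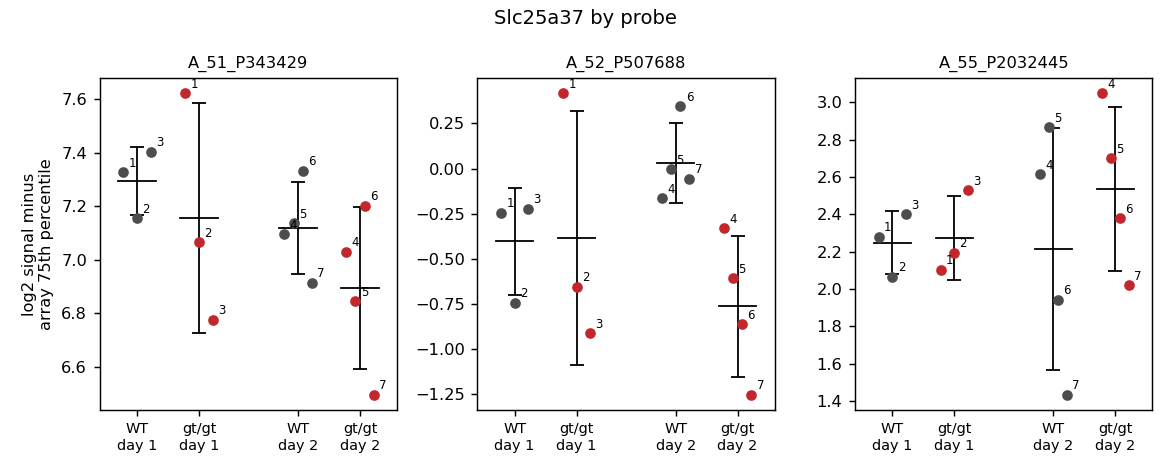
Log2 signal of the 3 Slc25a37 probes (1 panel each) by genotype and scan day, with each mouse as a numbered point, the mean as a line and the SD as a bar (n = 3 or 4). In the middle panel the 4 Sting gt/gt mice of scan day 2 lie below all 4 WT mice, and in the right panel their mean lies above the WT mean.

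Partner genes of heme and iron handling were listed by role, and 49 of 51 could be tested. A single partner was called, Tfrc, lower in Sting gt/gt, against 1.62% of all genes called lower. The list's median log2 fold change was -0.018, with 27 of 49 below 0. Without Sting gt/gt replicate 1, 11 partners were called lower and 2 higher, against 3.88% and 4.02% of all genes. The caution given above for that fit holds for these counts too. With the replicate number as a block, 3 partners were called, against 5.68% of all genes, and 0 of 9 members.

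Tfrc, the transferrin receptor that brings iron into the cell, lay between 3.17 and 4.47 in WT mice (median 3.87), against 2.77 to 4.27 in Sting gt/gt mice (median 3.23). The log2 fold change was -0.52 ± 0.24 (SE; limma p = 0.0418; adjusted p = 0.9998; exact permutation p = 0.0641), and 6 of 7 Sting gt/gt mice were below the WT median. The call was lost by the methods' t-test, by slide as a fixed or random block, within scan day 1 and on leaving out any 1 of WT replicates 1, 3, 5 and 6 and Sting gt/gt replicates 3 to 7. On scan day 2 it was -0.66 (limma p = 0.0224, adjusted p = 0.154; exact permutation p = 0.0571). The other 5 genes of cellular iron uptake, Slc11a2 (-0.25) the lowest among them, were not called.

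Alas1, the form of the first enzyme that cells outside the red lineage use, did not follow the members. It lay between 3.72 and 4.30 in WT mice (median 4.01), against 3.41 to 4.67 in Sting gt/gt mice (median 4.17), a log2 fold change of 0.092 ± 0.19 (SE). Scan day 1 gave -0.35 and scan day 2 gave 0.42, a difference between the days of 0.78 (interaction by limma, p = 0.0374; exact permutation within days, p = 0.0471; adjusted p by limma 0.248). Sting gt/gt replicate 1, the highest mouse for 8 members, was the lowest of the 14 for Alas1 (3.41).

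Slc25a28, mitoferrin-2, the iron importer of other tissues, also went the other way from the brightest Slc25a37 probe (-0.19), though not from A_55_P2032445 (0.19). It lay between 1.40 and 1.69 in WT mice (median 1.54), against 1.45 to 1.84 in Sting gt/gt mice (median 1.75), and 5 of 7 Sting gt/gt mice lay above every WT mouse. The log2 fold change was 0.14 ± 0.087 (SE; limma p = 0.133; exact permutation p = 0.0495). After scan-day means were removed its correlation with Alas2 across the 14 arrays was -0.80, a description only.

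Of the other mitochondrial carriers and helpers, 7 of 10 tested were below 0 and none was called. Abcb10, a mitochondrial inner-membrane transporter that stabilizes mitoferrin-1, lay between 3.89 and 4.69 in WT mice (median 4.31), against 3.37 to 4.99 in Sting gt/gt mice (median 3.89), a log2 fold change of -0.34 ± 0.23 (SE). Fam210b, a mitochondrial protein of red cell maturation, was -0.38 ± 0.18 (SE; adjusted p = 0.9998 by limma). Tmem14c, the porphyrinogen importer, was -0.069 ± 0.19 (SE). Without Sting gt/gt replicate 1, Abcb10 (-0.51) and Fam210b (-0.52) were called and Slc25a28 (0.18) was called higher.

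Among the 12 genes of iron-sulfur cluster assembly none was called over 14 arrays. On scan day 2 the co-chaperone Hscb was lower in Sting gt/gt (-0.34; limma p = 0.0472; adjusted p = 0.22; exact permutation p = 0.0286), with values of 2.87 to 3.16 against 3.31 to 3.44 in WT. Its partner chaperone Hspa9 was higher there (0.43; limma p = 0.00347; adjusted p = 0.0656; exact permutation p = 0.0286), with values of 3.72 to 4.04 against 3.21 to 3.66. Neither pair of groups overlapped on that day, as held for 7.43% of all genes below and 7.31% above.

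Iron storage, export and sensing (9 tested) and heme transport, breakdown and heme-regulated factors (10 tested) had medians of 0.041 and -0.0091 and no calls. Hmox1, the heme oxygenase that breaks heme down, lay between 5.65 and 6.09 in WT mice and between 5.53 and 6.22 in Sting gt/gt mice, a log2 fold change of 0.10 ± 0.12 (SE). Eif2ak1, the heme-regulated kinase HRI that slows globin translation when heme is short, was -0.32 ± 0.17 (SE; adjusted p = 0.9998 by limma) and was called without Sting gt/gt replicate 1 (-0.45).

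**Figure D5:**
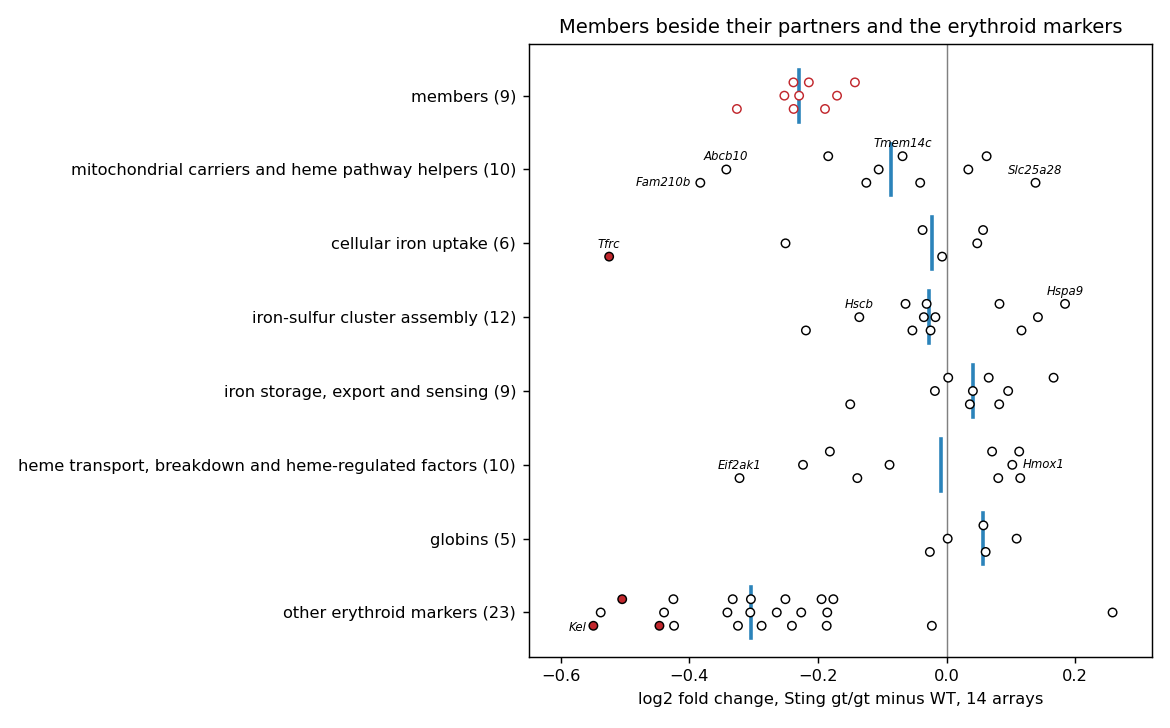
Each point is the log2 fold change, Sting gt/gt minus WT over 14 arrays (x axis), of 1 gene, grouped by role (y axis, number of genes tested), with filled points called at an unadjusted p under 0.05 and blue lines at the medians. The members (median -0.23) lie to the left of 0, as do 22 of the 23 other erythroid markers (median -0.30), while the globins (median 0.057) and the iron groups center near 0.

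Most markers of erythroid cells were lower on average in Sting gt/gt, as the members were, apart from the globins and Sptb (0.26). Of 28 erythroid markers tested, 23 were below 0 and 3 were called lower (3 of 28, against 1.62% of all genes), Kel among them. Kel, a blood group antigen of red cells, was -0.55 ± 0.19 (SE; adjusted p = 0.9998 by limma). Across the 14 mice, with scan-day means removed, Slc4a1, the anion exchanger of the red cell membrane, followed Alas2 at r = 0.86.

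The erythroid regulators Klf1 (-0.42 ± 0.26 SE) and Gata1 (-0.18 ± 0.18 SE) and Slc4a1 (-0.30 ± 0.20 SE) were not called. The mean log2 signal over the 28 genes of the list lay between 4.25 and 4.90 in WT mice. In Sting gt/gt mice it lay between 3.90 and 5.10, with replicate 1 at 5.10. This mean includes the globins, so its ranges also hold their scan-day differences, given below. With Sting gt/gt replicate 1 left out, 16 of the 28 were called lower, against 3.88% of all genes, Epb42 (-0.78) and Kel (-0.69) among them. That count depends on leaving out the array with the highest mean of the list, so it cannot be read as an ordinary one. The part of erythroid cell number in the members' values was not tested.

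The globin genes did not follow. The 5 tested had log2 fold changes from -0.026 to 0.11, and none was called. Hba-a1 lay between 8.56 and 9.56 in WT mice and between 8.61 and 9.60 in Sting gt/gt mice, and Hbb-bt from 7.71 to 9.05 and from 7.89 to 9.17, so both genotypes covered the same range. All 5 were lower on scan day 2 than on scan day 1, with differences of -1.25 to -0.34, each at an adjusted p under 0.05, whereas no member passed that test. Their correlation with Alas2 after scan-day means were removed was -0.032 for Hba-a1, -0.081 for Hba-a2 and -0.072 for Hbb-bt, and Hba-a1 and Hba-a2 are near-identical copies that a probe may not separate.

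No marker of the other cell types was called over the 14 arrays. Of 10 proliferation genes, 9 were below 0 (median -0.11), and their mean level lay between 3.54 and 4.30 in WT mice and between 3.30 and 4.26 in Sting gt/gt mice, where replicate 1 was the highest. B cell markers (8 tested) had a median of 0.25 on scan day 1 and -0.49 on scan day 2, where 6 were called lower, and plasma cell markers (6 tested) -0.10 and 0.44, where 4 were called higher, against 11.1% and 11% of all genes. Neutrophil and precursor markers (9 tested) were all above 0 over the 14 arrays (median 0.18), but 4 of the 9 were below 0 on scan day 1 (median 0.022). On scan day 2, 3 of the 9 were called higher (median 0.34), against the 11% of all genes. On that day 7 of the 28 erythroid markers were called lower, against the 11.1% of all genes. None of the 28 was called lower on scan day 1, against 1.81% of all genes. T cell markers had a median of 0.025, macrophage and monocyte markers 0.048, and megakaryocyte and platelet markers 0.021. All 8 B cell and all 8 T cell markers listed, the lymphocytes that fill most of a spleen, were among the tested genes. Their part in the members' values was not tested.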

How the data were processed

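Splenocyte RNA of 7 WT and 7 Sting gt/gt mice was read on 14 arrays, 1 per mouse, from 100 ng of labelled RNA each. The deposited scanner files hold intensity per spot, corrected for background but not scaled between arrays by the authors' software (Agilent Feature Extraction, version 11.0.1.1). A deposited table of log2 values, whose normalization is not given in the sources used here, tracked these intensities array by array (r = 0.997 to 0.999) and served as an alternative.

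Of 62976 spots per array, 59305 are not controls and stand for 56605 probes. The 75th percentile of the processed signal over these spots (562 to 766 across arrays) was subtracted on the log2 scale, outlier-flagged spots were dropped, spots of a probe were averaged, and a probe was tested if it was well above background on 7 or more of the 14 arrays. A gene was read from its brightest tested probe. Probes were named by accession through RefSeq (GRCm38.p6), without versions, and 32994 probes (58.3%) matched a symbol. Since the array header names another build, coordinates are given for the RefSeq promoter windows alone.

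Sting gt/gt was compared with WT in R 4.3.3 on all 24908 genes with lmFit and eBayes of limma 3.58.1, called at an unadjusted p under 0.05, with Benjamini-Hochberg adjustment beside it. Exact permutation tests were two-sided. A group for each genotype and scan day gave the within-day differences and their interaction. The scripts were tested on simulated data. Arrays of both genotypes with the same replicate number deviated together (r = 0.156 to 0.533 across genes), and less so once scan-day means were removed (-0.41 to 0.25). Labels name no litter or cage. Precision is limited by the number of arrays.

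The members, the gene lists and the alternatives were chosen with earlier results of these data known. Named genes were all 9 members, partners chosen by role (Alas1, Slc25a28, Abcb10, Tmem14c, Tfrc, Hmox1) or called in the 14-array fit, a scan day or the interaction, erythroid markers (Hba-a1, Hba-a2, Hbb-bt, Hbb-bs, Ahsp, Klf1, Gata1, Slc4a1) and the 10 genes most like Alas2. Fam210b, Eif2ak1, Slc11a2, Kel, Epb42 and Sptb were named after their values were seen. Some genes these rules would name are not reported here. Hbb-bs, Ahsp, Ly6g and Atp5if1 matched no probe and Ftmt was not tested. Promoters of Fech and Slc25a37 and protein sequences were not used here. Python 3.11.15 with numpy 2.4.6, pandas 2.3.3 and matplotlib 3.10.9 made the tables and plots.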

Additional observations from a re-analysis of the deposited data

Results flagged for a closer look

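Among the 9 members and 9 partners, 36 groups of 7 mice were checked for a mouse standing apart from the rest, and chance flags about 1 in 20 such groups. There were 3. Fech in Sting gt/gt replicate 1 had a log2 signal of 6.96, against 6.10 in the next highest Sting gt/gt mouse. Hscb in WT replicate 2 had 2.86, against 3.27 in the next lowest WT mouse. Hscb in Sting gt/gt replicate 1 had 3.73, against 3.16 in the next highest Sting gt/gt mouse.

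For 2 partners the genotype effect differed between the scan days by the interaction test of limma, at an unadjusted p under 0.05, as it did for 18% of all genes. For Alas1 the log2 fold change on scan day 2 minus that on scan day 1 was 0.78 (-0.35 on scan day 1, 0.42 on scan day 2; p = 0.0374, adjusted p = 0.248; exact permutation within days, p = 0.0471). For Hspa9 it was 0.57 (-0.14 and 0.43; p = 0.00829, adjusted p = 0.132; exact permutation within days, p = 0.0114). Slide cannot be told apart from genotype on scan day 2.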

How the results depend on the processing

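All 9 members stayed below 0 under every scaling, background, filter, probe and test alternative, the replicate block, scan day as a term and each array left out, with Alas2 between -0.36 and -0.18 over these. With slide as a fixed block (5 arrays of scan day 1) all reversed, to 0.099 for Alas2, 0.11 for Alad, 0.098 for Uros, 0.13 for Urod, 0.084 for Cpox, 0.25 for Ppox, 0.37 for Fech, 0.073 for Slc25a37 and 0.15 for Slc25a38, as did Abcb10 (0.21), Tmem14c (0.12), Hscb (0.24), Alas1 (-0.43), Hmox1 (-0.015) and Hspa9 (-0.13). With slide as a random block Fech (0.046), Hscb (0.019), Tmem14c (0.030) and Alas1 (-0.13) reversed, and within scan day 1 Fech (0.096), Ppox (0.053), Hscb (0.14), Hspa9 (-0.14) and Alas1 (-0.35). With an array left out Tmem14c ran from -0.17 to 0.014, above 0 without WT replicate 3, and Alas1 from -0.0061 to 0.20, below 0 without Sting gt/gt replicate 5. The count of called members, 0 over 14 arrays by limma and by the methods' t-test, rose to 4 with array weights plus an intensity trend (17.5% of all genes) and 0 to 6 with an array left out, the 6 without Sting gt/gt replicate 1. That array left out with scan day as a term, an alternative chosen after seeing the data, gave 5 members and 14 partners, against 3115 of all 24908 genes (12.5%). The interaction called 0 to 1 members with an array left out, the 1 without Sting gt/gt replicate 3. The count of called partners, 1, became 2 with quantile normalization, no scaling, the t-test or scan day as a term, 3 with normexp, the deposited table, the replicate block or within scan day 2, 12 with array weights, 0 with either slide block or within scan day 1, and 0 to 13 with an array left out. The count of all called genes, 868, became 1928 with the deposited table, 4360 with array weights, 1416 with the replicate block, 1812 with scan day as a term, 445 with slide as a random block, 1384 within scan day 1, 5507 within scan day 2 and 496 to 1967 with an array left out. Of all genes 1.86% were called higher and 1.62% lower, against 1.17% and 2.08% with median centring and 0.598% and 2.47% without scaling. The replicate block changed no member's call. The causes were not tested.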
